A study of Mus musculus with 24 samples.

Results

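The genes described here mark the ends of the liver lobule. They are 10 genes on the array, of 18193 with a probe set of their own. The 8 pericentral genes, whose hepatocytes lie around the central vein, are Glul, Slc1a2, Rhbg, Lgr5, Axin2, Tbx3, Lect2 and Aldh1a1. The 2 periportal genes are Cdh1 and Hsd17b13. Every probe set whose only gene symbol was one of these names was taken, which gave 22 probe sets, 15 of them bright enough to be tested, and all 10 genes had at least 1 such probe set. The zones come from earlier knowledge of the genes. Whole liver was measured, so the arrays show how much of each transcript the organ held and not where in the lobule it lay.

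The series asked how phloridzin, the glucoside of apple that blocks sodium-dependent glucose transport, alters blood glucose and liver transcripts in normal mice. Male BALB/c mice, described as 6 weeks old, received the purified AIN-93G diet with no phloridzin (control) or with 0.1, 0.5 or 1.0% phloridzin for 14 days. Per the labels there were 6 mice per diet, kept 3 to a cage, with free access to food. All diets, the control included, were given to mice of the same sex and strain, and the labels name no altered gene.

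In the lobule, blood flows from the portal tract to the central vein, and hepatocytes along this path differ in oxygen, hormones and work. Endothelial cells of the central vein release Wnt ligands and R-spondin, and beta-catenin, which these signals stabilise, works with TCF/LEF factors to hold up pericentral genes and hold down periportal ones. Pericentral hepatocytes make glutamine and oxidise drugs, whereas periportal hepatocytes lead in gluconeogenesis, urea synthesis and amino acid breakdown.

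Stretches upstream of 3 members are printed. Lect2 and Slc1a2 were taken because they hold a motif of the pathway above. Axin2, the feedback gene of that pathway, was taken because its level was lowest at the highest dose. The mean was also lowest there for Glul, Lgr5, Tbx3 and Aldh1a1. Each stretch is the 250 bases before the gene's annotated start in RefSeq on GRCm38.p6, read 5′ to 3′ on the gene's own strand. Lect2 lies on the minus strand (chr13:56548539-56548788), Slc1a2 on the plus strand (chr2:102706188-102706437) and Axin2 on the plus strand (chr11:108920099-108920348). Capitals mark the core of a TCF/LEF binding motif, CTTTGAT, or its reverse complement ATCAAAG, searched on both strands. No other motif was searched.

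Lect2: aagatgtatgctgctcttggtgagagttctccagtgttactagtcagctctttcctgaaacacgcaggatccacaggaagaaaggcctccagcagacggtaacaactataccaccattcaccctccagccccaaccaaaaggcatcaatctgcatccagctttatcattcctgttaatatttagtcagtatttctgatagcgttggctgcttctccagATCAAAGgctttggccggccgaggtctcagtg
Slc1a2: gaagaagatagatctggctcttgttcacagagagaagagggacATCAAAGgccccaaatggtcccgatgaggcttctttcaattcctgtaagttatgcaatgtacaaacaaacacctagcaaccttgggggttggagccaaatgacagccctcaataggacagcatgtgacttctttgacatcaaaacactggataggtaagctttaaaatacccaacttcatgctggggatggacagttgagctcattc
Axin2: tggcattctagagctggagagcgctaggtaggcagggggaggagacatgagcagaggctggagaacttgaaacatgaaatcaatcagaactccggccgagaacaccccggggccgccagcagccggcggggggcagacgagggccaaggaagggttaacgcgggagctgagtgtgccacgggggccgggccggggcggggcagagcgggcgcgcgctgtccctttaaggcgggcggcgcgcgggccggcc

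The Lect2 stretch held the motif once, starting 32 bases before the gene and lying on the opposite strand. In Slc1a2 it began 207 bases before the start, also on the opposite strand. Axin2 had no match in its 250 bases, which says only that these letters are not in this window. Of all 32851 listed promoters, 1053 (3.21%) held the motif within the same length. Promoters of 6 member genes were listed, in 7 entries, and these 2 held it. The stretches also differed in composition: Axin2 had 69.2% G and C with 24 CpG dinucleotides, Lect2 48.0% with 5 and Slc1a2 44.8% with 1, against a median of 52.4% and 6 CpG over all entries. A match of letters is a description of the sequence and not a measured binding site.

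The 24 arrays held fewer separate RNA samples than their titles name. Arrays so alike that they were taken to carry the same RNA were averaged, which left 11 RNA samples: 4 of control (replicates 1 and 3, replicates 2 and 4, replicate 5, replicate 6), 3 at 0.1% (replicates 2, 4 and 5), 2 at 0.5% (replicates 1, 2, 3 and 6, then 4 and 5) and 2 at 1.0% (replicates 2, 3, 5 and 6, then 4). A further RNA carried titles of both 0.1% (replicates 1, 3 and 6) and 1.0% (replicate 1) and entered no comparison. The joined arrays were not all equally alike. Over well measured genes, 13 repeat pairs had an SD of log2 differences of 0.044 to 0.058. Another 8 pairs, at 0.5% and 1.0%, were joined by their likeness in the most variable genes, at an SD of 0.11 to 0.14. The closest pair kept apart had 0.16. The labels do not tie the samples left to separate animals, so a p-value here covers only the spread among them, which may be technical. Signals are log2 intensities after quantile normalization, with 3.00 as the floor. The number of arrays limits the precision, and no detection call or scan date was used. Hepatocyte markers were bright in all samples (5 of 6 listed markers measured, summed linear signal 52983 to 57168 in control). The 0.1% sample of replicate 4 stood apart in RNA quality: the signal from the 3′ end of the actin transcript exceeded that from its 5′ end by 2.32 on the log2 scale, against 1.31 to 1.54 in control. It was 1.78 in the 0.5% sample of replicates 4 and 5. The 0.1% sample of replicate 5 lay farthest out on the first principal component of the tested genes, at 51.6 where the other 10 samples lay between -18.4 and 12.0.

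No member passed the test in any comparison of diets. With limma across 13118 genes and an adjusted p under 0.05 as the threshold, 0 of 10 members were called at 0.1%, at 0.5% and at 1.0% against control. Over all genes the same test called 0.0229% at 0.1%, 0.00762% at 0.5% and 0.0152% at 1.0%, so few genes of any kind were called. The lowest adjusted p among members was 0.488 at 0.1%, 0.956 at 0.5% and 0.758 at 1.0%. Between doses, 0 members were called as well, with 0% of all genes called for 0.5% against 0.1%, 0.0152% for 1.0% against 0.1% and 0% for 1.0% against 0.5%. A slope on the phloridzin content called 0 members and 0% of genes, and an F-test over the 4 diets called 0 members and 0.0152% of genes.

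At an unadjusted p under 0.05, 3 of 10 members passed at 0.1% (Rhbg higher, Lect2 and Hsd17b13 lower), where 8.47% of all genes did. At 0.5% the count was 0 of 10, with 5.22% of all genes, and at 1.0% it was 1 of 10 (Axin2, lower), with 6.49%. Rhbg and Tbx3, both lower at the higher dose, passed it for 0.5% against 0.1% and again for 1.0% against 0.1%, where 10.7% and 12.2% of genes did. These 2 comparisons share the 0.1% samples. For 1.0% against 0.5% the count was 0 of 10 (4.21% of genes). The slope gave 1 of 10 (Axin2; 8.83% of genes) and the F-test 2 of 10 (Rhbg and Lect2; 9.25% of genes).

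Few members stood clear of control in every sample, and more did between doses, as did genes at large. All samples at 0.1% lay above all control samples for Glul and Rhbg, 2 of 10 members, and 7.87% of all genes had no overlap with control there in either direction. At 0.5% no member was free of overlap (0 of 10, against 17.9% of genes). At 1.0% Axin2 and Aldh1a1 lay below all control samples, 2 of 10, where 20.6% of genes did not overlap. For 0.5% against 0.1%, 5 of 10 members did not overlap (Aldh1a1 and Hsd17b13 higher; Glul, Rhbg and Tbx3 lower), beside 24.2% of genes. For 1.0% against 0.1% it was also 5 of 10 (Lect2 higher; Glul, Rhbg, Axin2 and Tbx3 lower; 25.6% of genes), with the 0.1% samples shared. For 1.0% against 0.5% it was 4 of 10 (Lect2 higher; Glul, Lgr5 and Aldh1a1 lower), with 35.9% of genes. The median change of the members was -0.11 at 0.1%, -0.08 at 0.5% and -0.10 at 1.0% on the log2 scale, beside 0.00, 0.01 and -0.02 over all genes.

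**Figure D1:**
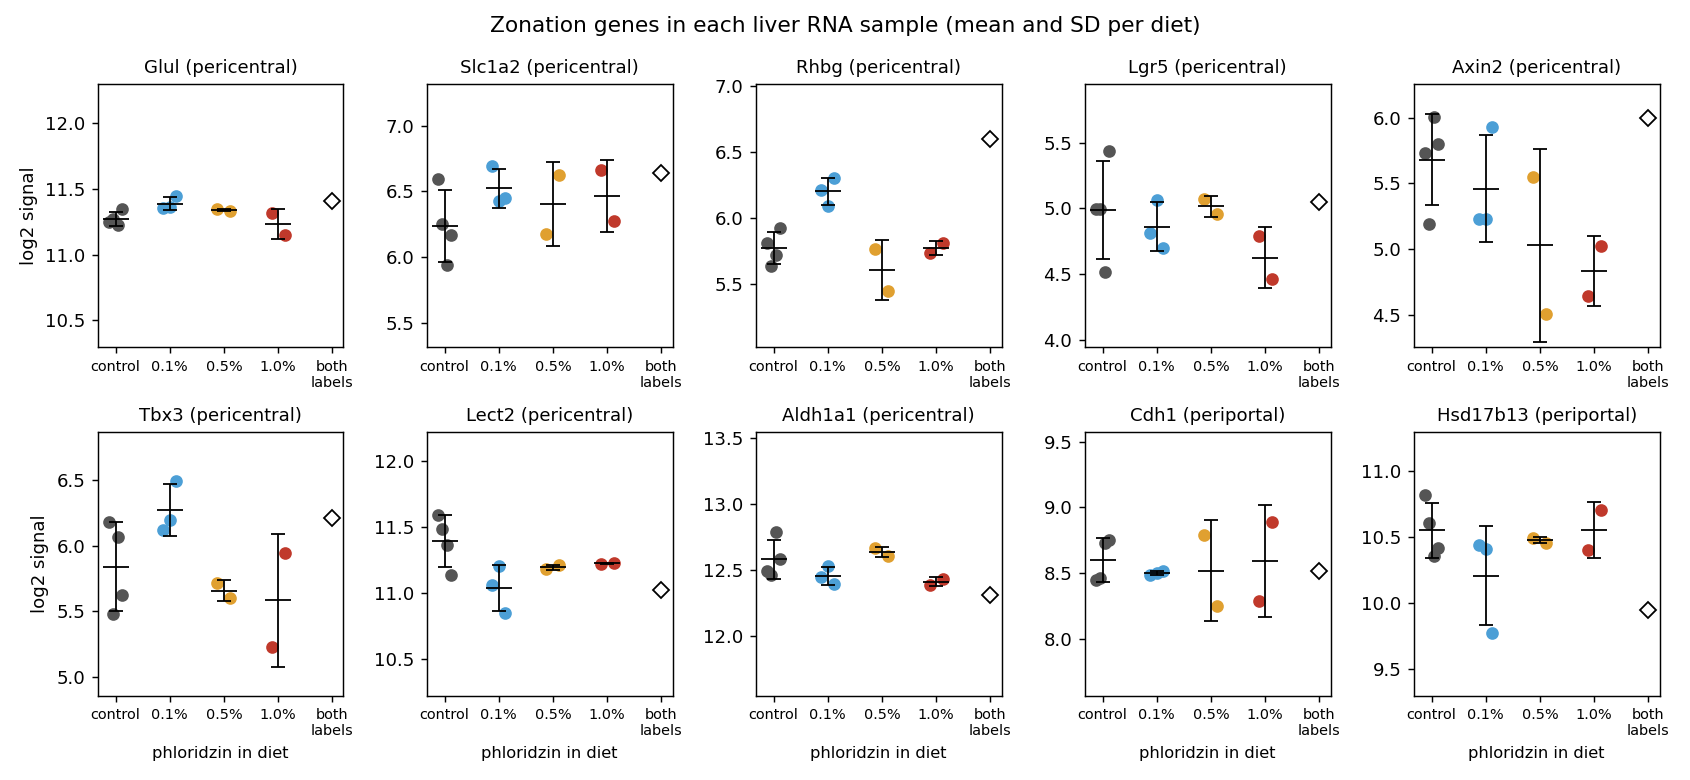
Log2 signal (vertical axis, each panel spanning its own range of levels) of the 10 zonation genes in each RNA sample, by phloridzin in the diet (horizontal axis). Filled points are samples, the long line is the diet's mean and the short lines its SD; the open diamond is the RNA titled with both 0.1% and 1.0%. Rhbg at 0.1% lies between 6.10 and 6.30, above all control samples, and Axin2 at 1.0% lies at 4.65 and 5.03, below them.

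Glul encodes glutamine synthetase, the enzyme that joins ammonia to glutamate in the last ring of hepatocytes before the central vein. Its brighter probe set (1426236_a_at) gave log2 signals of 11.25, 11.27, 11.22 and 11.35 in the control samples and 11.36, 11.36 and 11.44 at 0.1%. At 0.5% the samples gave 11.35 and 11.34, and at 1.0% they gave 11.32 and 11.15. The 0.1% samples were thus all above control, by little, while the higher doses overlapped it. Against control the change was 0.12 ± 0.08 (SE; 95% confidence interval -0.05 to 0.28) at 0.1%, 0.07 ± 0.09 at 0.5% and -0.04 ± 0.09 at 1.0% (interval -0.23 to 0.15). The diets ranked, from low to high mean, as 1.0%, control, 0.5% and 0.1%, and no neighbours in this order passed the limma test. Without replicate 5 of 0.1%, the outlying sample on the first principal component, the change at 0.1% was 0.09. With no scaling between arrays the change at 0.1% was -0.054, where the median of all genes was -0.16. At 1.0% the value depended on the scaling: with arrays centred on their median it was -0.32 ± 0.12 (limma adjusted p = 0.188), where the median of all genes was -0.20. In whole tissue, fewer cells of a type and less RNA per cell cannot be told apart, here or for the other members.

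The dimmer Glul probe set (1426235_a_at) gave another picture at the highest dose. Its log2 signals were 9.63, 9.62, 9.69 and 9.79 in control, 9.65, 9.60 and 9.83 at 0.1%, 9.64 and 9.35 at 0.5%, and 9.51 and 9.24 at 1.0%. Both 1.0% samples lay below all control samples, with a change of -0.31 ± 0.13 (SE; limma adjusted p = 0.736 over 22794 probe sets). This did not pass the test, and the brighter probe set of the same gene was at -0.04 there.

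Slc1a2, the glutamate carrier GLT-1, and Rhbg, an ammonium carrier, bring glutamine synthetase its substrates in the same cells. Slc1a2 (1438194_at) read 6.60, 6.26, 5.94 and 6.17 in control, 6.70, 6.43 and 6.45 at 0.1%, 6.18 and 6.63 at 0.5%, and 6.66 and 6.27 at 1.0%. All 4 diets overlapped. The change was 0.28 ± 0.19 at 0.1%, 0.16 ± 0.21 at 0.5% and 0.23 ± 0.21 at 1.0% (interval -0.23 to 0.69). A dimmer Slc1a2 probe set (1451627_a_at) stood at 5.80 to 6.13 in control and at 6.17 and 5.02 at 1.0%, so its samples at that dose lay on both sides of control.

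Rhbg had the clearest separation among the members. Its only probe set (1419134_at) gave 5.81, 5.64, 5.72 and 5.92 in control, a mean of 5.77 ± 0.12 (SD, n = 4). At 0.1% it gave 6.22, 6.10 and 6.30, or 6.20 ± 0.10 (SD, n = 3). The samples at 0.5% (5.77 and 5.45) and at 1.0% (5.74 and 5.81) lay within or below the control range. Every 0.1% sample was thus above every sample of the other 3 diets. The change at 0.1% was 0.43 ± 0.16 (SE; interval 0.09 to 0.77), a 1.35-fold difference, with a limma adjusted p of 0.515. The level at 0.5% was lower than that at 0.1% by a log2 change of -0.60 ± 0.19 (limma adjusted p = 0.339), and that at 1.0% by -0.43 ± 0.19. At 1.0% against control the change was 0.00 ± 0.18 (interval -0.39 to 0.39). Without the 0.1% sample of lower RNA quality, the change at 0.1% was 0.49 and its limma adjusted p 0.383. Without replicate 5 of 0.1%, the outlying sample on the first principal component, the change was 0.38.

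Axin2 and Lgr5 report on Wnt signalling itself: Axin2 is a target of beta-catenin that feeds back to restrain it, and Lgr5 is a receptor for R-spondins that is made around the central vein. Axin2 (1436845_at) read 5.73, 5.19, 6.00 and 5.80 in control and 5.23, 5.23 and 5.93 at 0.1%. It read 5.55 and 4.51 at 0.5% and 4.65 and 5.03 at 1.0%. The diet means followed the dose downward, at 5.68 ± 0.35 (SD, n = 4), 5.46 ± 0.41 (n = 3), 5.03 ± 0.73 (n = 2) and 4.84 ± 0.27 (n = 2). Only the 1.0% samples were clear of the control range, and neighbouring diets overlapped.

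The Axin2 change was -0.22 ± 0.28 (SE) at 0.1%, -0.65 ± 0.32 at 0.5% and -0.84 ± 0.32 at 1.0%. The last had an interval of -1.53 to -0.16, a 1.80-fold lower level and a limma adjusted p of 0.758. The slope was -0.85 ± 0.29 on the log2 scale per 1% of phloridzin in the diet (limma adjusted p = 0.464). At 0.5% the value rested on 1 sample: without that of replicates 4 and 5 the change was -0.13, and without the other 0.5% sample it was -1.17. The first of these samples had the raised actin ratio given above, whose part in the value was not tested. The RNA with titles of 2 diets read 6.00, near the top of the control range, and with it added at both doses the 1.0% change was -0.46. The other Axin2 probe set (1421341_at) was at or near the floor in all samples (3.00 to 3.26) and was not tested.

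Lgr5 (1450988_at) gave 5.00, 5.00, 4.52 and 5.43 in control, 4.81, 5.06 and 4.70 at 0.1%, 5.07 and 4.96 at 0.5%, and 4.79 and 4.46 at 1.0%. The control samples alone spread over most of this range. The change was -0.13 ± 0.23 at 0.1%, 0.03 ± 0.26 at 0.5% and -0.36 ± 0.26 at 1.0% (interval -0.92 to 0.20). From low to high the diets ranked 1.0%, 0.1%, control and 0.5%, and no neighbours differed beyond their spread.

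Tbx3, a T-box repressor of transcription that beta-catenin induces in hepatocytes, read 6.18, 5.48, 6.06 and 5.62 in control (1448029_at). It read 6.12, 6.19 and 6.49 at 0.1%, 5.71 and 5.60 at 0.5%, and 5.23 and 5.94 at 1.0%. The 0.1% samples lay at the top of the control range or above it, and all 3 exceeded the samples of both higher doses. Against control the change was 0.43 ± 0.22 at 0.1% (limma adjusted p = 0.610), -0.18 ± 0.25 at 0.5% and -0.25 ± 0.25 at 1.0%. Against 0.1% it was -0.61 ± 0.26 at 0.5% (adjusted p = 0.444) and -0.68 ± 0.26 at 1.0% (adjusted p = 0.328). The second probe set tested for Tbx3 (1437479_x_at) was 0.50 ± 0.30 above control at 0.1% and 0.05 ± 0.34 above it at 1.0%. At 1.0% the main probe set's sign rested on 1 sample: without that of replicates 2, 3, 5 and 6 the change was 0.10.

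**Figure D2:**
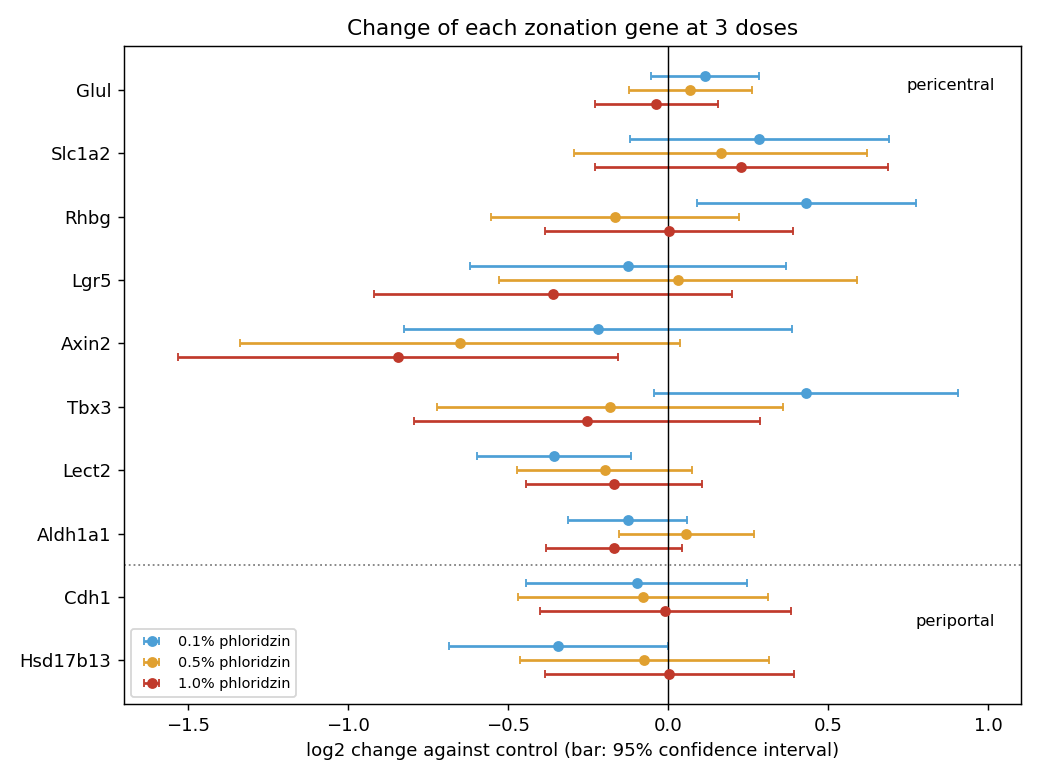
Log2 change against control (horizontal axis) of each zonation gene at 0.1, 0.5 and 1.0% phloridzin, with its 95% confidence interval from limma. The interval lies clear of 0 for Rhbg, Lect2 and Hsd17b13 at 0.1% and for Axin2 at 1.0%, and none of these passed the adjusted test.

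Lect2, a protein that hepatocytes secrete and a known target of beta-catenin, had the lowest p of the members against control. Its probe set (1449492_a_at) read 11.59, 11.49, 11.37 and 11.14 in control and 11.06, 11.20 and 10.85 at 0.1%. It read 11.18 and 11.21 at 0.5% and 11.22 and 11.23 at 1.0%. Control replicate 6 was the lowest control sample and lay among the treated ones; the other 3 control samples were above every treated sample. The change was -0.36 ± 0.11 (SE; interval -0.60 to -0.12) at 0.1%, with a limma adjusted p of 0.488. It was -0.20 ± 0.13 at 0.5% and -0.17 ± 0.13 at 1.0% (interval -0.44 to 0.10). With arrays centred on their median the last was -0.44 (limma adjusted p = 0.118), where the median of all genes was -0.20. Without the 0.1% sample of lower RNA quality the change at 0.1% was -0.44. It was -0.26 without replicate 5 of 0.1%, the outlying sample on the first principal component.

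Aldh1a1, an enzyme that oxidises retinal to retinoic acid, varied little. Its probe set (1416468_at) gave 12.49, 12.46, 12.78 and 12.58 in control, 12.44, 12.53 and 12.39 at 0.1%, 12.66 and 12.61 at 0.5%, and 12.39 and 12.43 at 1.0%. The 1.0% samples were below every control sample, the nearest by a small step. The change was -0.13 ± 0.09 at 0.1%, 0.06 ± 0.10 at 0.5% and -0.17 ± 0.10 at 1.0% (interval -0.38 to 0.04, limma adjusted p = 0.772). With arrays centred on their median the last was -0.32, where the median of all genes was -0.20.

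Cdh1 encodes E-cadherin, the adhesion molecule of epithelial junctions, which periportal hepatocytes and bile duct cells carry. Its probe set (1448261_at) gave 8.45, 8.46, 8.73 and 8.75 in control and 8.48, 8.50 and 8.52 at 0.1%. The samples at 0.5% read 8.79 and 8.25, and those at 1.0% read 8.29 and 8.89. At both higher doses one sample lay above control and the other below it. The change was -0.10 ± 0.16 at 0.1%, -0.08 ± 0.18 at 0.5% and -0.01 ± 0.18 at 1.0% (interval -0.40 to 0.38). Centred on array medians, the values at 0.1, 0.5 and 1.0% were -0.22, -0.24 and -0.29. The medians of all genes were then -0.08, -0.09 and -0.20. Bile duct markers were dim: 3 of 7 (Krt19, Epcam and Sox9) passed the filter, and their summed linear signal was 31.0 to 43.6 in control, 36.1 to 62.4 at 0.1%, 60.7 to 61.6 at 0.5% and 38.7 to 67.4 at 1.0%. Each of the 3 was at the floor in at least 1 sample, and their part in the Cdh1 level was not tested.

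Hsd17b13, a dehydrogenase of lipid droplets in hepatocytes, read 10.82, 10.61, 10.36 and 10.42 in control on its brighter probe set (1460606_at). At 0.1% it read 10.44, 10.41 and 9.77, at 0.5% 10.49 and 10.46, and at 1.0% 10.40 and 10.71. All but the 0.1% sample of replicate 5 lay within the control range. The change was -0.34 ± 0.16 (SE; interval -0.69 to -0.00) at 0.1% (limma adjusted p = 0.588), -0.07 ± 0.18 at 0.5% and 0.00 ± 0.18 at 1.0%. Without replicate 5 of 0.1%, the outlying sample on the first principal component, the first of these was -0.13. The dim second probe set (1425589_at) went the other way, by 0.58 ± 0.32 at 0.1%, 0.30 ± 0.36 at 0.5% and 0.58 ± 0.36 at 1.0%. It spread from the floor to 4.29 among the control samples, and the mean of both probe sets was 0.12 above control at 0.1%.

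**Figure D3:**
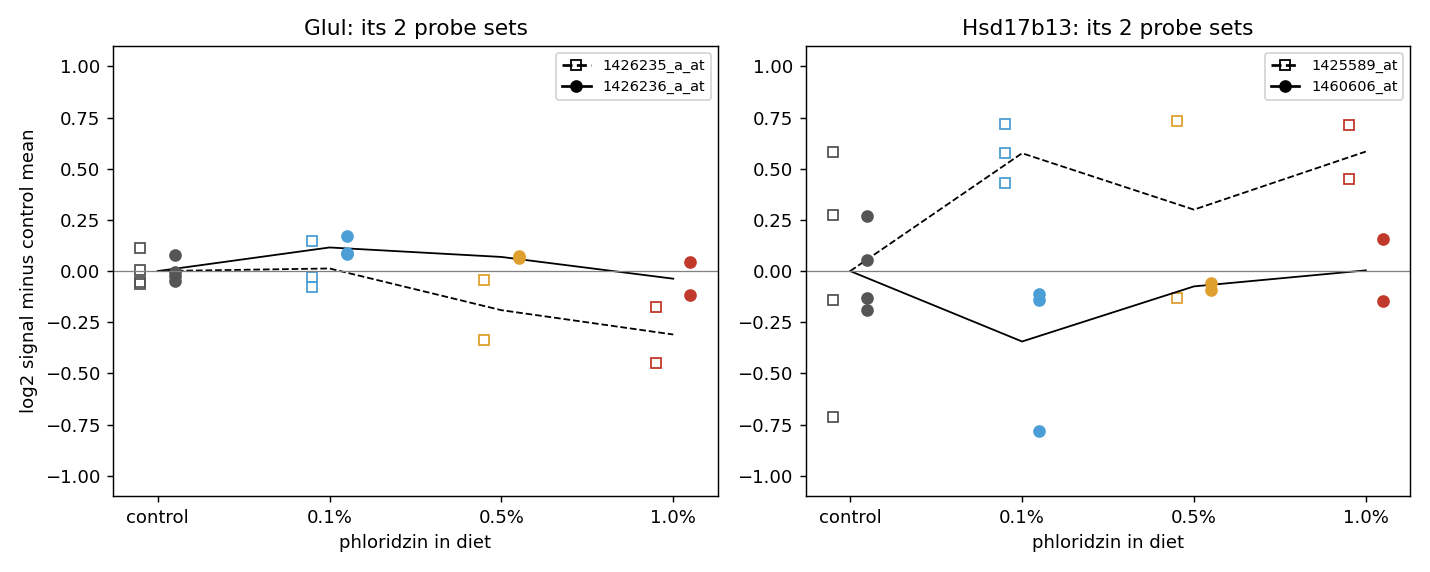
Log2 signal minus the control mean (vertical axis) for the 2 probe sets each of Glul (left) and Hsd17b13 (right), by phloridzin in the diet. Filled circles with the solid line of means are the brighter probe set, open squares with the broken line the dimmer one. At 1.0% the dimmer Glul probe set averaged -0.31 and the brighter one -0.04; at 0.1% the Hsd17b13 probe sets averaged 0.58 and -0.34.

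Of the 22 member probe sets, 15 passed the filter on low signals and 0 were called in any comparison against control. The other 7 lay at or near the floor and give no information on the diets: 2 of Slc1a2 (1433094_at and 1459014_at), 3 of Tbx3 (1439567_at, 1444594_at and 1445757_at), 1 of Lgr5 (1444519_at) and 1 of Axin2 (1421341_at). Slc1a2 1433094_at and Tbx3 1444594_at were at the floor in every sample. A probe set listed for Slc1a2 together with another gene was left out by the rule.

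To set the ends of the lobule against each other, each member's log2 difference from its control mean was averaged over the 8 pericentral and over the 2 periportal genes in each sample. The pericentral minus the periportal value was 0.05, -0.08, 0.01 and 0.02 in control. It was 0.14, 0.16 and 0.53 at 0.1% (mean 0.28 ± 0.22, SD, n = 3), -0.10 and 0.04 at 0.5%, and 0.01 and -0.40 at 1.0%. The 0.1% samples were thus the highest, and those of the other doses lay in or below the control range. At 0.1% the pericentral mean was 0.05 and the periportal mean -0.22, so most of the difference lay in the pair of periportal genes, and within it in Hsd17b13. The 0.53 came from replicate 5 of 0.1%, and without that sample the mean at 0.1% was 0.15. With the mean of all probe sets per gene, the value at 0.1% was 0.02. No test was made of this value, since the genes were chosen with results known.

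Other genes of the same zones, from lists that hold none of the members, also gave no call. Of 16 further pericentral genes 13 were tested, with 0 called at any dose and medians of -0.07, -0.11 and -0.17 at 0.1, 0.5 and 1.0%. At 1.0%, 5 of the 13 were above control and 8 below. Cldn2, a tight junction protein, was at -0.24 ± 0.11 there and Cyp3a11, a drug-oxidising cytochrome, at -0.21 ± 0.11. Gulo, which makes ascorbate, was at -0.19 ± 0.13. Cyp1a2, another cytochrome of drug oxidation, stood at -0.52 ± 0.16 at 0.5% (limma adjusted p = 0.665) and at -0.24 ± 0.16 at 1.0%.

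Of 20 further periportal genes 16 were tested, with 0 called and medians of -0.04, -0.13 and 0.00. Uroc1, urocanase of histidine breakdown, was 0.39 ± 0.21, 0.50 ± 0.23 and 0.78 ± 0.23 above control at the rising doses, with a limma adjusted p of 0.715 at 1.0%. Arg1, the arginase of the urea cycle, was at 0.31 ± 0.11 at 1.0%. Apoa4, an apolipoprotein, was at -0.34 ± 0.15 and Fbp1, a gluconeogenic phosphatase, at -0.17 ± 0.10. At that dose 8 of the 16 were above control and 8 below. Singled out for the lowest p of the list at any dose, Hsd17b6, a steroid dehydrogenase, was at -0.88 ± 0.20 at 0.5% (limma adjusted p = 0.415). G6pc, the phosphatase that frees glucose, was at -0.61 ± 0.28 at 0.1%.

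The Wnt and beta-catenin pathway was followed by role. Of 32 listed genes 28 were tested, 0 were called, and the medians were 0.09, 0.08 and 0.03 at the rising doses. Among ligands and agonists, Wnt2, which endothelium around the central vein releases, was at -0.51 ± 0.29 at 1.0%, and Rspo3 at 0.10 ± 0.28. Of 7 receptors, 4 were above control and 3 below at 1.0%, with Fzd7 at 0.41 ± 0.23. Of 9 inhibitors and parts of the destruction complex, Axin1, the scaffold related to Axin2, was at 0.36 ± 0.16 at 0.1% and at -0.45 ± 0.18 at 1.0% (limma adjusted p = 0.759). Rnf43, a ligase that removes Wnt receptors and is itself a target, was at -0.56 ± 0.28 at 1.0%. Axin1 and Rnf43 were not typical of the 9 at that dose, where 6 were above control and 3 below. The effector Bcl9l, a coactivator of beta-catenin, was at 0.30 ± 0.14, 0.40 ± 0.16 and 0.36 ± 0.16. Among the other targets, Ccnd1 was at 0.11 ± 0.18 at 1.0%. Sp5 and Myc were near the floor (control means 3.84 and 3.88, with 2 samples and 1 sample at it), so the size of their changes is not readable.

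**Figure D4:**
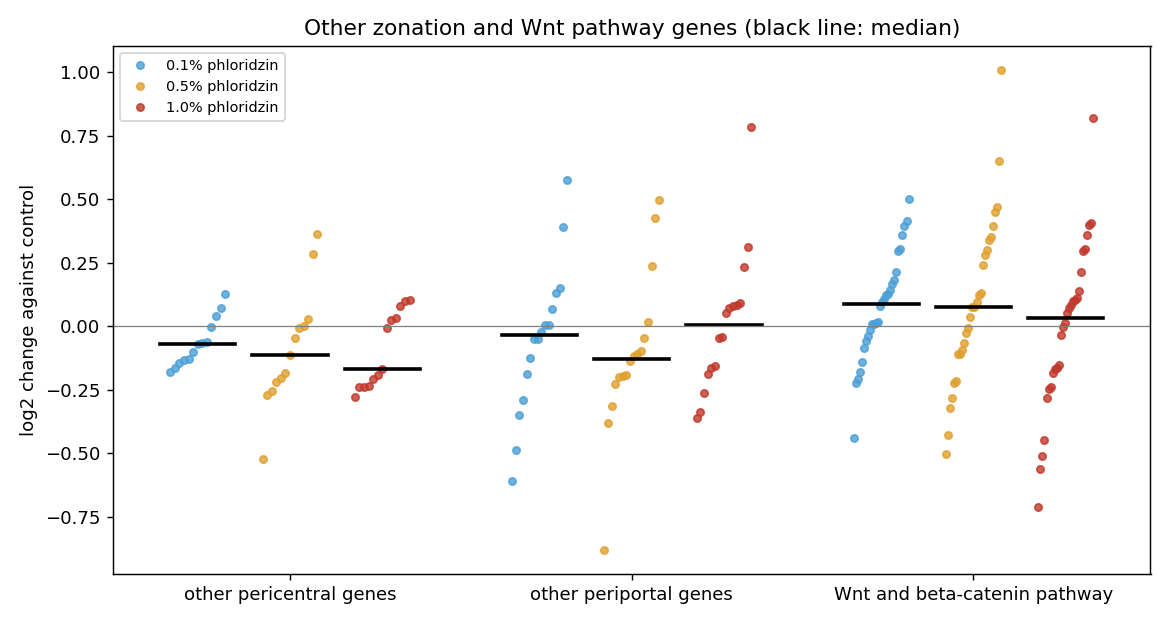
Log2 change against control (vertical axis) of each tested gene of 3 lists at 0.1, 0.5 and 1.0% phloridzin; each point is a gene, sorted by value, and the black line is the median. The medians lie between -0.17 and 0.09, and no gene passed the adjusted test.

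The genes whose pattern over the 11 RNA samples was most like that of Glul were Iqsec1 (Pearson r = 0.968), Eif4ebp1 (0.962) and Emp2 (0.918). For Hsd17b13 they were Saa4 (0.972), BC023105 (0.970) and Scp2 (0.967). These are the highest of 13118 genes, so high values arise from the search alone, and the samples share diets and array scaling; they are given as a description.

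Markers of the cells that neighbour the central vein or line the sinusoids were compared beside the members. For central vein endothelium 4 of 5 markers were tested and none was called; their summed linear signal was 115 to 140 in control, 113 to 117 at 0.1%, 113 to 152 at 0.5% and 90.9 to 128 at 1.0%. Sinusoidal endothelium (6 of 6 markers) gave 1660 to 1776 in control and 1266 to 1631 at 0.1%. It gave 1668 to 1744 at 0.5% and 1565 to 1657 at 1.0%. This sum, in which the brightest markers weigh most, lay below control at 0.1 and 1.0%. The mean log2 difference from control over the 6 markers overlapped control at both doses. It was -0.05 to 0.08 in control, -0.42 to 0.04 at 0.1% and -0.03 to 0.07 at 1.0%. Kupffer cells (4 of 5) gave summed signals of 1165 to 1321 in control and 984 to 1168 at 0.1%. They gave 1301 to 1428 at 0.5% and 1119 to 1213 at 1.0%. The lowest 0.1% value of both lists came from replicate 4, the sample of lower RNA quality. Their part in the Rhbg, Lect2 and Hsd17b13 values at 0.1%, and in the Axin2 and Aldh1a1 values at 1.0%, was not tested.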

How the data were processed

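Linear probe set intensities from 24 Affymetrix arrays were used as the authors deposited them. Per the labels' protocols, RNA was primed with oligo(dT) and labelled with biotin; not given in the sources used here were the summary method, the background correction and any scaling, and array medians ran from 9.49 to 18.0. Intensities were quantile-normalized, floored at 8 and log2-transformed, the lowest 40% of probe sets were left out, and the brightest probe set stood for each gene. Arrays with an SD of log2 differences under 0.08, or a fingerprint ratio (distance in the 200 most variable genes over that in the rest) under 1.2, were averaged. Diets were compared gene by gene in 1 limma 3.58.1 fit (R 4.3.3, lmFit, eBayes with trend, 7 residual degrees of freedom). The slope on phloridzin content came from a second fit of the same samples. Tests were two-sided, with Benjamini-Hochberg adjustment over 13118 genes. Single probe sets were tested in separate fits, adjusted over 22794 probe sets. The steps were tested on simulated data, in which the changes made were larger than those of any member against control. The chance of calling a change of the size seen here was not tested. Entrez identifiers of 34741 of 34945 single-gene probe sets were found in RefSeq, and 0 symbols differed. The members, the lists and the repeat-array rule were chosen with earlier results of these data known. Named beside the members were up to 4 genes per list with the lowest p at 1.0%, genes singled out at another dose or for their role after their values were seen, and the 3 genes most correlated with Glul and Hsd17b13. Alternatives changed the scaling, floor, filter, probe set, sample definition, variance model and test, and left out each sample.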

Additional observations from a re-analysis of the deposited data

Results flagged for a closer look

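The RNA titled both 0.1% (replicates 1, 3 and 6) and 1.0% (replicate 1) entered no comparison, and in it 4 members read above all control samples. Glul was at 11.41, Slc1a2 at 6.64, Rhbg at 6.60 and Tbx3 at 6.21 on the log2 scale. For Rhbg this was also above each of the 3 samples of 0.1%, the highest of which was 6.30. Another 3 members read below all control samples there: Lect2 at 11.03, Aldh1a1 at 12.30 and Hsd17b13 at 9.94. The share of all genes outside the control range in this RNA was not computed. Without that share, the counts of 4 and 3 cannot tell whether the members differed from genes at large. The 4 arrays behind the Rhbg value read 6.38, 6.69 and 6.47 under the 0.1% titles and 6.85 under the 1.0% title. Which diet this RNA came from is not given by the data, and the values were not tested.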

How the results depend on the processing

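In every alternative that averaged repeat arrays, 0 members were called in all 8 tests, and also when each of the 11 samples was left out in turn. With all 24 arrays counted as separate samples, repeat hybridisations of 1 RNA count as replicates. There, 5, 1 and 1 members were called at 0.1, 0.5 and 1.0% (Lect2 at each dose). Of all genes, 20.1, 3.42 and 3.06% were called at these doses in that setting. It also gave 4, 1 and 1 members in the comparisons between doses, 5 in the F-test and 7 probe sets. For these the share of all genes was not computed. The replicate numbers do not pair the samples (36 same-number pairs, correlation of deviations -0.15 to 0.42, 4 of 24 arrays closest to their own number). The replicate block with all 24 arrays gave 4 members at 0.1%, where 20.8% of all genes were called. At 0.5 and 1.0% it called 3.3 and 2.65% of all genes. This block setting too called members between doses and in the F-test, and some member probe sets, again with no share computed. The pericentral minus periportal value was 0.020 at 0.1% and -0.13 at 0.5% with the mean of probe sets; leaving out samples gave 0.15 to 0.35 at 0.1%, -0.10 to 0.04 at 0.5% and -0.40 to 0.01 at 1.0%.

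Of 30 member changes against control, 14 kept their sign in all settings run and 16 did not. Centring arrays on their median put the median of all genes at -0.09 at 0.5% and -0.20 at 1.0%. There, Glul, Lgr5 and Aldh1a1 were -0.10, -0.029 and -0.039 at 0.5%, and Rhbg and Hsd17b13 -0.14 and -0.31 at 1.0%. Glul at 1.0% kept its sign but stood at -0.32. With no scaling, the median of all genes was -0.16, -0.19 and -0.35 at 0.1, 0.5 and 1.0%. Glul was then -0.054 at 0.1%. At 0.5% Glul, Slc1a2, Lgr5 and Aldh1a1 were -0.21, -0.035, -0.13 and -0.14. At 1.0% Slc1a2, Rhbg and Hsd17b13 were -0.12, -0.30 and -0.46. With the mean of probe sets, Hsd17b13 was 0.12 at 0.1% and 0.11 at 0.5%, Glul -0.061 at 0.5% and Slc1a2 -0.10 at 1.0%. Without joining RNA by fingerprint, Cdh1 was 0.011 at 0.5%, and Rhbg and Hsd17b13 -0.0096 and -0.047 at 1.0%. With all 24 arrays, with or without the replicate block, Axin2 was 0.10 at 0.1%, Cdh1 0.058 at 0.5%, and Glul and Hsd17b13 0.034 and -0.23 at 1.0%. With the RNA of 2 diets added at both, an alternative chosen after seeing the data, Glul was 0.020 and Hsd17b13 -0.20 at 1.0%. Leaving out samples gave, at 0.1%, -0.28 to 0.023 for Lgr5; at 0.5%, -0.061 to 0.39 for Slc1a2, -0.13 to 0.18 for Lgr5, -0.35 to 0.19 for Cdh1 and -0.14 to 0.015 for Hsd17b13; and at 1.0%, -0.12 to 0.044 for Glul, -0.042 to 0.053 for Rhbg, -0.61 to 0.10 for Tbx3, -0.31 to 0.29 for Cdh1 and -0.15 to 0.15 for Hsd17b13. The cause of these flips was not tested. A group of 2 samples with 1 left out took its spread from the other diets. The low signals of Sp5, Myc and the second probe sets of Axin2 and Hsd17b13, near the floor, limit what could be seen in them. The tested probe sets of Lgr5 and Axin2 were low too, down to 4.46 and 4.51, though in no sample at the floor.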
